A study of Mus musculus with 6 samples.

Results

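The B cell identity genes Cd79a, Cd79b, Ms4a1, Pax5, Ebf1, Spib, Cd22 and Blk were followed across RNA sequencing libraries of splenic CD4 T cells. They were chosen by symbol, through the Ensembl identifiers of the deposited table, and all 8 were found among its 28914 genes. The RNA came from a sort of total CD4 T cells out of the spleen. The mice were 12 weeks old and of the NOD strain, which develops autoimmune diabetes spontaneously, and the cells had received no stimulation of the T cell receptor. The 3 groups hold 2 libraries each: controls with the genotype WT, a group labelled CKO with the genotype Blimp1 knockout, and a group labelled BTg with Blimp-1 overexpression. The labels name neither the promoter of the transgene nor the deleting Cre, nor do they tie a library to a mouse of its own. The p-values below then reflect variation between libraries, which may be technical. Values are FPKM, the reads on a gene per kilobase of its length and per 1000000 reads counted on genes.

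B cells carry an antigen receptor whose membrane immunoglobulin signals through the CD79A and CD79B chains. PAX5 and EBF1 are the transcription factors that set up and hold the B cell programme. Prdm1 encodes the transcriptional repressor Blimp-1, which shuts this programme down when a B cell becomes an antibody-secreting plasma cell, and Pax5 and Spib are among its classic targets there. In a CD4 T cell sort these transcripts are low, and the question is whether they differ with the labelled Blimp-1 genotype.

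The sequences before the starts of Pax5 and Spib are shown because these genes are the classic Blimp-1 targets of the set, and a stretch before Cd22 because it holds the one motif match found. RefSeq promoter windows on GRCm38.p6, from 250 bases before to 50 after a start, were found for 5 of the 8 genes (Cd79a, Pax5, Ebf1, Spib and Cd22). Both strands were searched for 4 motifs. The Blimp-1 core (AGTGAAAG or AGCGAAAG) is in 1.84% of the 32851 windows of all genes, and the EBF1 palindrome (TCCC, any 2 bases, then GGGA) in 0.904%. The octamer ATGCAAAT is in 1.74%, and the core shared by PU.1 and Spi-B, GAGGAAGT, in 3.2%. The only match in the windows of the 5 genes was an EBF1 palindrome that begins 49 bases before the Cd22 start, in capitals below. The other 3 motifs had no match in these windows, which says only that these letters are not there. The Pax5 window (250 bases before the start, chr4:44710695-44710944, minus strand) and the Spib window (chr7:44532072-44532321, minus strand) overlap no annotated exon. GENCODE M21 draws the Pax5 gene from 44524757 to 44710487, so the RefSeq start used here lies outside it. The bases just after that start are in no GENCODE transcript of Pax5. The Cd22 stretch (chr7:30879058-30879087, minus strand) lies within the Cd22 gene as GENCODE M21 draws it and outside annotated exons.
Pax5: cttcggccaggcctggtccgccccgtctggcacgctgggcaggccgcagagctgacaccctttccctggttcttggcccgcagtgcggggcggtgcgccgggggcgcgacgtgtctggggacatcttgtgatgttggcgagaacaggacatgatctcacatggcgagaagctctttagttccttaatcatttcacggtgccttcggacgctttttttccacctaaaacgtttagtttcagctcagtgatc
Spib: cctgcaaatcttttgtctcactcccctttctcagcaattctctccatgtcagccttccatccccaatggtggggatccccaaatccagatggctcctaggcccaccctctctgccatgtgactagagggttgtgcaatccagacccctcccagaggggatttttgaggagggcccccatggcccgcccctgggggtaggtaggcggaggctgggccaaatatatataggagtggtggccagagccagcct
Cd22: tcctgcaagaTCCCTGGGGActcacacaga

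The libraries held 14958458 to 17799091 reads on genes. Prdm1 stood at 0.458 and 0.628 FPKM in WT, 0.849 and 0.669 in the libraries labelled CKO and 19.6 and 30.1 in BTg; the sum over the gene cannot check a deletion of part of it, so directions drawn from CKO rest on its label. Cd4 stood at 53.8 to 103 FPKM and Cd8a at 0.03 to 0.13. The 12 genes of the T cell identity list summed to 2813 and 1791 FPKM in WT, 1536 and 1974 in CKO and 2977 and 2371 in BTg. CKO replicate 1 stood apart from the other libraries: 11 neutrophil genes took 1.35% of its reads against at most 0.04% elsewhere, 10 immunoglobulin constant genes took 5.2% against at most 1.26%, and 10 plasma cell genes 0.654% against at most 0.198%. Values of Cd79a, Cd79b, Cd22, Blk and the B cell lists are therefore also given without it below.

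As a set the 8 genes were scarce. Their reads came to 36.2 and 74.1 per 1000000 in WT, 114 and 79.1 in the libraries labelled CKO, and 31.5 and 38.4 in BTg. Both CKO libraries were above both WT libraries and both BTg libraries, and BTg overlapped WT. These sums are mostly Cd79a, Cd79b, Cd22 and Blk, and the genes did not move as one set, as their separate values show. In bulk libraries fewer cells of a type and less RNA per cell cannot be told apart.

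**Figure D1:**
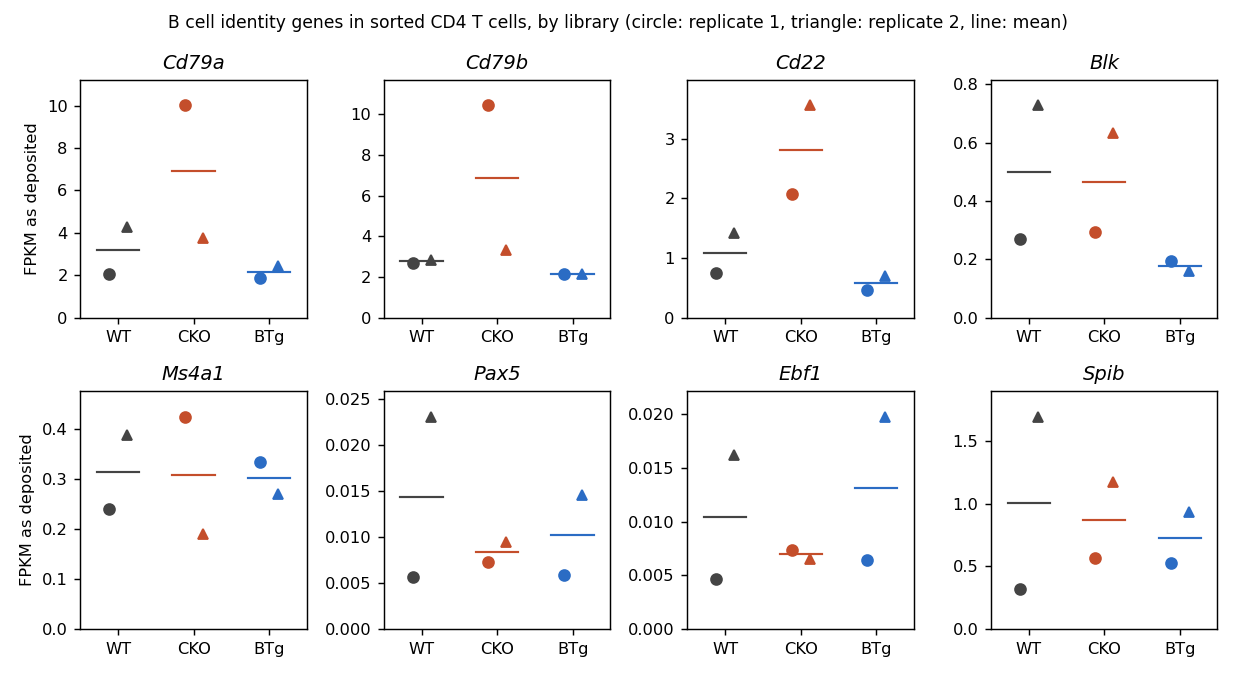
FPKM as deposited (linear axes from 0, 1 scale per gene) of the 8 B cell identity genes in each library of WT, CKO and BTg; circles are replicate 1, triangles replicate 2 and lines the group means. Cd79a and Cd79b are highest in CKO replicate 1, Cd22 is highest in both CKO libraries, Blk is lowest in both BTg libraries, and Pax5 and Spib are highest in WT replicate 2.

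Cd79a (ENSMUSG00000003379, chromosome 7, 24897381 to 24902197 on GRCm38, plus strand) encodes the CD79A signalling chain of the B cell receptor. It stood at 2.08 and 4.29 FPKM in WT, 10.02 and 3.77 in CKO, and 1.86 and 2.43 in BTg, from 137 to 859 reads. CKO replicate 1 was the highest library and CKO replicate 2 lay inside the WT range, so WT and CKO overlapped, as did WT and BTg. Cd79b (ENSMUSG00000040592, chromosome 11, 106311341 to 106314762, minus strand) encodes its partner chain. Its values were 2.71 and 2.84 FPKM in WT, 10.4 and 3.31 in CKO, and 2.12 and 2.14 in BTg. Here the groups did not overlap, with BTg below WT and CKO above it, but CKO replicate 2 was only 1.17 times the WT library of the same number against 3.86 times for replicate 1.

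The difference of CKO from WT was 0.85 (SE 0.46) for Cd79a and 0.90 (SE 0.44) for Cd79b on the log2(FPKM + 1) scale, which understates the change of low genes. Neither passed (limma adjusted p = 1 for both). Without CKO replicate 1 these differences were 0.24 and 0.19. BTg stood below CKO by a log2 difference of -1.21 (SE 0.46) for Cd79a and -1.16 (SE 0.44) for Cd79b, with limma adjusted p = 0.538 and 0.54. Without CKO replicate 1 these were -0.61 and -0.46, and without CKO replicate 2 they were -1.81 and -1.87. In each of these fits CKO is a single library, assumed to vary like the other groups. The size of both genes' CKO values therefore rests on the library in which plasma cell and immunoglobulin reads were also highest. Jchain, the joining chain of secreted antibody, was 724 FPKM there and 56.4 to 176 elsewhere, and Mzb1, a chaperone of antibody-secreting and marginal zone B cells, 63.3 and 5.61 to 19. The part of such cells in the Cd79a and Cd79b values was not tested.

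Cd22 (ENSMUSG00000030577, chromosome 7, 30865402 to 30880342, minus strand) encodes a sialic acid-binding inhibitory coreceptor of the B cell receptor. It was the only one of the 8 genes with WT, CKO and BTg apart from each other by more than 1.5-fold in the same direction at both replicate numbers. The WT libraries held 0.752 and 1.42 FPKM (98 and 159 reads). The CKO libraries held 2.07 and 3.56 FPKM (270 and 463 reads), and the BTg libraries 0.456 and 0.693 FPKM (51 and 76 reads). No libraries of different groups overlapped, and the highest was CKO replicate 2. The neutrophil and plasma cell lists also had CKO above WT and WT above BTg without overlap. So did the monocyte and macrophage list and a list of NK cell genes. Neutrophil genes took 0.0121 and 0.0328% of reads in WT, 1.35 and 0.04% in CKO, and 0.00787 and 0.00838% in BTg. Plasma cell genes took 0.13 and 0.136%, 0.654 and 0.198%, and 0.124 and 0.0977% in that order. The immunoglobulin constant genes overlapped between BTg and WT. The part of such cells in the Cd22 values was not tested. The Cd22 ratio of CKO to WT was 2.75 at replicate 1 and 2.51 at replicate 2. The ratio of BTg to WT was 0.607 and 0.488, and that of BTg to CKO 0.22 and 0.195.

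For Cd22 the CKO difference from WT was 0.86 (SE 0.29), the BTg difference from WT -0.39 (SE 0.29), and the BTg difference from CKO -1.25 (SE 0.29) on the log2(FPKM + 1) scale. None passed over all genes tested, with limma adjusted p = 1, 1 and 0.337, and unadjusted p = 0.0262, 0.231 and 0.0053. With limma voom on whole reads worked back from these values, which adds no such pseudocount, the 3 differences were 1.41 (SE 0.46), -0.86 (SE 0.57) and -2.26 (SE 0.52), with adjusted p = 0.78, 1 and 0.16. Without CKO replicate 1 the CKO difference from WT was 1.15 and the BTg difference from CKO -1.54. The BTg difference from WT was -0.16 without WT replicate 2 and -0.62 without WT replicate 1. Over all alternatives the lowest adjusted p of any Cd22 comparison was 0.15.

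Blk (ENSMUSG00000014453, chromosome 14, 63372836 to 63417037, minus strand) encodes a Src-family kinase of B cells that gamma-delta T cells and plasmacytoid dendritic cells also express. It stood at 0.269 and 0.729 FPKM in WT, 0.293 and 0.634 in CKO, and 0.195 and 0.158 in BTg, from 55 to 261 reads. Both BTg libraries lay below all 4 others, while WT and CKO overlapped almost fully. Blk was under the filter of the FPKM test (1 FPKM in 2 libraries), because its deposited length is 8.6 times its exon length. In the fit without a filter the BTg differences were -0.33 (SE 0.21) from WT and -0.31 (SE 0.21) from CKO, with limma adjusted p = 1 and 0.694. The difference from WT was -0.11 without WT replicate 2 and -0.56 without WT replicate 1. That from CKO was -0.14 without CKO replicate 2 and -0.47 without CKO replicate 1. With limma voom on all libraries they were -1.29 (SE 0.66) from WT and -1.29 (SE 0.66) from CKO, with adjusted p = 1 and 0.468.

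Markers of other cells that can carry Blk were measured beside it. The 7 measured gamma-delta T cell genes summed to 9.89 and 16 FPKM in WT, 8.59 and 16.6 in CKO and 4.11 and 5.44 in BTg, so BTg was again lowest in both libraries. Their defining constant gene Trdc was 1.77 and 3.44 FPKM in WT, 1.1 and 3.65 in CKO, and 1.26 and 1.96 in BTg, and none of the 7 was at 0 in any library. Siglech, a lectin of plasmacytoid dendritic cells, was 0.0662 and 0.484 FPKM in WT, 0.0301 and 0.664 in CKO, and 0.0631 and 0.129 in BTg. The 8 plasmacytoid dendritic cell genes summed to 34.8 and 26.5 FPKM in WT, 60.7 and 30.4 in CKO, and 40.2 and 28.3 in BTg; Klk1 was at 0 in CKO replicate 1 and Cox6a2 in BTg replicate 2. The part of these cells in the Blk values was not tested.

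Ms4a1 (ENSMUSG00000024673, chromosome 19, 11249675 to 11266241, minus strand) encodes CD20, the surface protein that defines mature B cells for antibody depletion. It was 0.241 and 0.388 FPKM in WT, 0.425 and 0.19 in CKO, and 0.334 and 0.269 in BTg, from 41 to 92 reads. All 3 groups overlapped, and the group means of 0.314, 0.308 and 0.302 FPKM were nearly equal. CKO replicate 1 was the highest library here and CKO replicate 2 the lowest. With limma voom the differences were -0.09 (SE 0.56) for CKO from WT, -0.01 (SE 0.57) for BTg from WT and 0.08 (SE 0.57) for BTg from CKO (adjusted p = 0.993, 1 and 0.962). Those standard errors leave room for changes in either direction.

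The 3 transcription factors followed another order of libraries. Pax5 (ENSMUSG00000014030, chromosome 4, 44524757 to 44710487, minus strand) had 18 and 63 reads in WT, 23 and 30 in CKO, and 16 and 39 in BTg, or 0.00566 to 0.0231 FPKM. Spib (ENSMUSG00000008193, chromosome 7, 44525993 to 44532071, minus strand), which encodes the Ets factor Spi-B, stood at 0.316 and 1.7 FPKM in WT, 0.563 and 1.17 in CKO, and 0.529 and 0.932 in BTg, from 23 to 106 reads. For both genes WT replicate 2 was highest and the other groups lay within the WT range. The WT libraries alone differed 4.08-fold for Pax5 and 5.37-fold for Spib, beyond counting error, since the exact Poisson intervals at 95% were 10.7 to 28.4 and 48.4 to 80.6 reads for Pax5 and 14.6 to 34.5 and 86.8 to 128 reads for Spib.

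Ebf1 (ENSMUSG00000057098, chromosome 11, 44617317 to 45008091, plus strand) had 5 and 15 reads in WT, 8 and 7 in CKO, and 6 and 18 in BTg. All 3 groups overlapped, and the 2 CKO libraries lay inside the WT range. The Poisson interval was 1.62 to 11.7 reads in the lowest library and 10.7 to 28.4 in the highest. All these intervals cover counting error only. With limma voom the Ebf1 differences were -0.29 (SE 0.91) for CKO from WT, 0.40 (SE 0.88) for BTg from WT and 0.69 (SE 0.89) for BTg from CKO, with adjusted p = 0.987, 1 and 0.76. For Spib the log2(FPKM + 1) differences were -0.03 (SE 0.40) for CKO from WT, -0.13 (SE 0.40) for BTg from WT and -0.10 (SE 0.40) for BTg from CKO, with limma adjusted p = 1, 1 and 0.937. With limma voom the Pax5 differences were -0.43 (SE 0.80), -0.27 (SE 0.80) and 0.16 (SE 0.82) in that order, with adjusted p = 0.981, 1 and 0.942. Neither classic Blimp-1 target separated the groups: Pax5 and Spib were within the WT range both where Prdm1 was 19.6 and 30.1 FPKM and in the libraries labelled CKO.

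Levels can be compared between genes only per length, and the deposited lengths include introns to differing degrees (1.43 times exon length for Spib, 20.2 times for Pax5). Recomputed per exon length, the mean over the 6 libraries was 13.5 FPKM for Cd79a, 9.07 for Cd79b, 3.27 for Blk, 2.17 for Cd22, 1.24 for Spib, 0.605 for Ms4a1, 0.222 for Pax5 and 0.0633 for Ebf1. The ranges of all 7 neighbouring pairs in this order overlapped across libraries. Within a library the order was firmer: Cd79a exceeded Cd79b, Cd79b exceeded Blk, Ms4a1 exceeded Pax5 and Pax5 exceeded Ebf1 in 6 of 6 libraries, while Cd22 exceeded Spib in 3 of 6.

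The genes did not keep 1 ratio to each other. Of the reads on the 8 genes, Cd79a took 27.6% in WT replicate 1 (exact binomial interval 24.2 to 31.3%) and 42.4% in CKO replicate 1 (40.2 to 44.5%). Cd22 took 33% in CKO replicate 2 (30.5 to 35.5%) and 10.6 to 15.2% in the other 5 libraries. Spib took 2.02% in CKO replicate 1 (1.45 to 2.73%) and 9.91% in BTg replicate 2 (7.59 to 12.7%). The 2 CKO libraries held the highest and the lowest share of Cd79a, although they share a label.

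**Figure D2:**
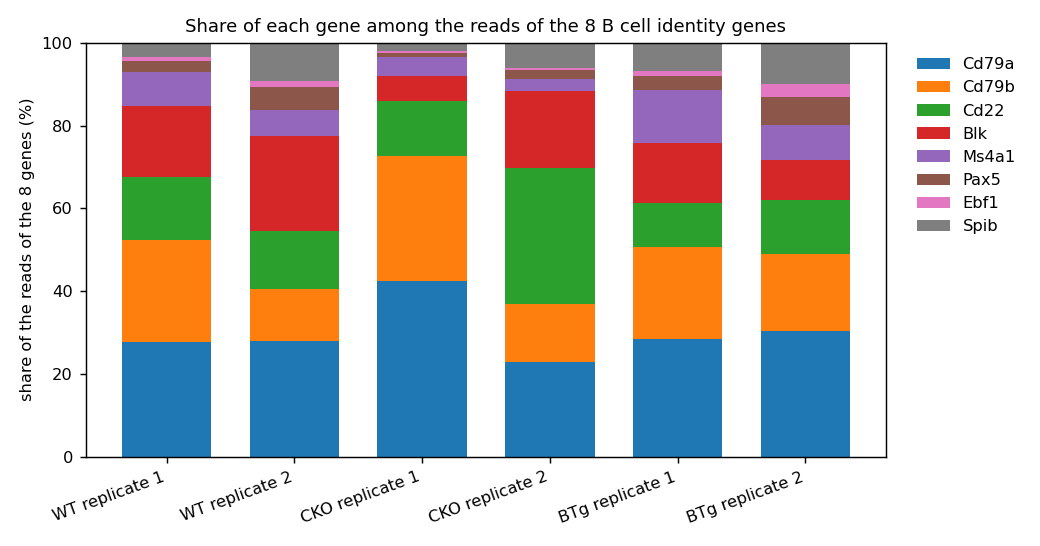
Share of each gene among the reads of the 8 B cell identity genes, in percent, 1 bar per library. Cd79a and Cd79b together fill most of the bar of CKO replicate 1, and Cd22 fills 33% of that of CKO replicate 2 against 10.6 to 15.2% elsewhere.

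Across the 6 libraries, as a description, Cd79a and Cd79b had Pearson's r = 0.94 on log2(FPKM + 1) and Pax5 and Spib r = 0.88. Cd79b and Spib had r = -0.17, Cd22 and Pax5 0.08, and Ms4a1 and Spib 0.06. Other pairs were closer, with Pax5 and Ebf1 at 0.81, Spib and Blk at 0.77, and Cd22 and Blk at 0.69. Over all pairs r ran from -0.29 for Cd79b and Ebf1 to 0.94 for Cd79a and Cd79b. By rank, Cd79b had Spearman's rho = 0.94 with Cd22 and 0.37 with Spib. The points share library and depth, and CKO replicate 1 weighs heavily in the pair of Cd79a and Cd79b. The 5 protein-coding genes whose pattern was most like the scaled mean of the 8 were Gcdh, Wdr75, Xpo1, Pcyt1a and Poldip2, with r = 0.997, 0.99, 0.99, 0.98 and 0.98 over 6 libraries among 10098 candidates; none is in the B cell lists used here. Pax5, Spib and Cd22 were higher in the library numbered 2 than in that numbered 1 in all 3 groups. That holds for 44.4% of the 15927 genes with at least 10 reads in 2 libraries, so 3 of 8 is no more than the background.

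Of the 8 genes, 4 passed the FPKM filter (Cd79a, Cd79b, Spib and Cd22). Spib passed through WT replicate 2 and CKO replicate 2, and Cd22 through WT replicate 2 and both CKO libraries. Cd22 thus met the filter only with the group in which it was highest. In CKO against WT 0 of these 4 were called by limma at adjusted p under 0.05, where 0% of 10798 genes were called, and 1, Cd22, had an unadjusted p under 0.05, as had 4.2% of all genes. Limma voom tested all 8 and also called 0, again with Cd22 alone under 0.05 unadjusted, against 0% of 15927 genes called and 5.93% under 0.05 unadjusted. In BTg against WT both tools called 0 and put 0 under 0.05 unadjusted, with 0.0185% and 0.0251% of genes called and 1.62% and 1.42% under 0.05 unadjusted. In BTg against CKO both called 0, and Cd79a, Cd79b and Cd22 were under 0.05 unadjusted, with 0.0185% and 0.044% of genes called and 8.79% and 12.8% under 0.05 unadjusted. In the fit without a filter, which supplied the values of genes under it, 0 of the 8 were called in any comparison, against 0.225%, 0.159% and 0.28% of 28914 genes. There Cd22 had limma unadjusted p = 0.041 in CKO against WT and 0.0119 in BTg against CKO. Of all genes, 4.99% and 7.95% were under 0.05 in these comparisons. Cd79a and Cd79b were no longer under it in BTg against CKO (limma unadjusted p = 0.0749 and 0.0758). The comparisons share libraries and are not separate evidence.

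Counted by overlap alone, 2 of the 8 (Cd79b and Cd22) had both CKO libraries above both WT libraries, and 0 below. Among genes with at least 10 reads in 2 libraries, 15.6% were so placed above and 9.39% below. In BTg 3 of 8 (Cd79b, Cd22 and Blk) lay below WT and 0 above, against 13.2% and 13.7%. Against CKO, 4 of 8 (Cd79a, Cd79b, Cd22 and Blk) lay below in BTg and 0 above, against 27.6% and 16.5%. With 8 genes these counts are few, and 5 of the 8 overlapped between BTg and WT.

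**Figure D3:**
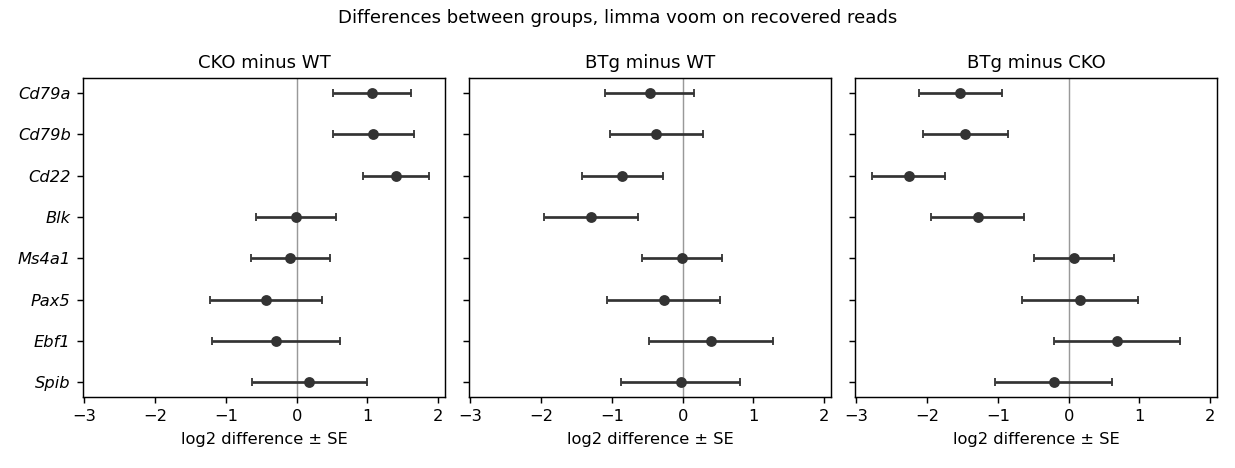
Differences of the 8 genes in the 3 comparisons from limma voom on recovered reads (points, log2 scale; bars are ± 1 SE; the grey line is 0). Cd22 lies farthest from 0 in the comparisons that involve CKO, at 1.41 and -2.26, and Ms4a1, Pax5, Ebf1 and Spib lie within about 1 SE of 0 in all 3; no difference passed adjustment.

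Relative to the T cell signal of each library the order was similar. Cd22 stood at 0.267 and 0.793 FPKM per 1000 FPKM of the T cell identity list in WT, at 1.35 and 1.8 in CKO and at 0.153 and 0.292 in BTg. CKO was again above both other groups, while BTg replicate 2 now exceeded WT replicate 1. Cd79a, by the same measure, was 6.52 in CKO replicate 1 and 1.91 in CKO replicate 2, the latter below WT replicate 2 at 2.39.

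Other genes of the B cell programme, in lists with none of the 8 among them, gave no call in the FPKM test either. Of 21 genes of B cell receptor signalling, 7 passed the filter, with 5 higher and 2 lower in CKO than in WT (median log2 difference 0.14), 4 and 3 in BTg against WT (0.14), and 4 and 3 in BTg against CKO (0.09). The medians over all genes tested were -0.03, 0.02 and 0.06. Limma voom, which tested all 21, placed 16 higher and 5 lower in CKO than in WT (0.49), 9 and 12 in BTg against WT (-0.10), and 8 and 13 in BTg against CKO (-0.88), so both BTg medians changed sign. Its medians over all genes were -0.01, 0.01 and 0.03. Without CKO replicate 1, the 7 genes were all higher in CKO than in WT (0.19), and 3 were higher and 4 lower in BTg than in CKO (-0.03). All genes tested then had medians of 0.11 and -0.05, and 67.4% and 40.9% of them were higher. Cr2, the complement receptor CD21, was 0.158 and 0.428 FPKM in WT, 0.114 and 0.194 in CKO, and 0.226 and 0.427 in BTg.

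Syk and Btk, kinases that myeloid cells also use, followed Cd79a instead. Btk was 0.153 and 0.611 FPKM in WT, 1.5 and 0.56 in CKO, and 0.238 and 0.215 in BTg, and Syk 0.168 and 0.625, 1.91 and 0.559, and 0.202 and 0.359. Both were highest in CKO replicate 1, where Csf1r, the receptor that defines monocytes and macrophages, was 4.89 FPKM against 0.208 to 1.14 elsewhere. The 10 monocyte and macrophage genes summed to 261 FPKM there and to 12 to 42.2 in the other libraries. Their part in the Btk and Syk values was not tested.

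Of 17 transcription factors of B cells 13 passed the filter, 7 of them higher and 6 lower in CKO than in WT (median 0.12), 7 and 6 in BTg against WT (0.03), and 6 and 7 in BTg against CKO (-0.00). Limma voom on all 17 gave 10 and 7 (0.26), 8 and 9 (-0.04), and 8 and 9 (-0.35) in that order. The 13 genes, with CKO replicate 1 left out, gave 10 and 3 in CKO against WT (0.31) and 4 and 9 in BTg against CKO (-0.34). Of all genes tested, 67.4% were then higher in CKO than in WT and 40.9% higher in BTg than in CKO. Pou2af1, a coactivator of octamer-binding factors in B and plasma cells, was 1.42 and 1.93 FPKM in WT, 5.71 and 3 in CKO, and 1.16 and 1.6 in BTg. Bcl11a, a factor of early B cells, was 0.0983 and 0.542 FPKM in WT, 0.37 and 0.43 in CKO, and 0.128 and 0.228 in BTg, with CKO inside the WT range. Irf8, a factor of B cells and dendritic cells, was 1.45 and 2.6 FPKM in WT, 4.51 and 2.89 in CKO, and 1.22 and 1.33 in BTg, in the same order of groups as Cd22. Bach2, a repressor shared by B and T cells, was 0.683 and 0.73 FPKM in WT, 0.147 and 0.612 in CKO, and 0.776 and 1.11 in BTg. Both BTg libraries were above both WT libraries, and both CKO libraries below them. Of 25 surface and other markers 15 passed the filter, with 12 higher and 3 lower in CKO than in WT (median 0.47), 2 and 13 in BTg against WT (-0.26), and 3 and 12 in BTg against CKO (-0.73). Limma voom on 24 of them gave 19 and 5 (0.75), 4 and 20 (-0.38), and 4 and 20 (-1.24). Without WT replicate 2, 14 passed the filter, and in BTg against WT 6 were higher and 8 lower (-0.11). Of all genes tested 66.4% were then higher. The median over all genes tested was then 0.135, against 0.02 with all libraries. The list median was below it in both fits. Without CKO replicate 1 the counts of the 15 stayed at 12 and 3 in CKO against WT (0.29) and 3 and 12 in BTg against CKO (-0.49). The shares of all genes tested were then again 67.4% and 40.9% higher. Fcer2a, the low-affinity IgE receptor of mature B cells, was 0.0978 and 0.236 FPKM in WT, 0.0349 and 0.0841 in CKO, and 0.106 and 0.316 in BTg, with both CKO libraries below the other 4. The surface list shares Mzb1 with the plasma cell list and Ly6d with the plasmacytoid dendritic cell list.

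Limma called 0 genes of these lists in any comparison, with 0 to 9 per list at unadjusted p under 0.05. Over all genes tested 4.2%, 1.62% and 8.79% were under it in CKO against WT, BTg against WT and BTg against CKO. The highest count, 9 of 15 surface markers in BTg against CKO, was 2 of 15 without CKO replicate 1. Limma voom called 1, Cxcr5, the follicle-homing receptor of B cells and of follicular helper T cells, which was lower in BTg than in CKO with a log2 difference of -3.14 (SE 0.35, adjusted p = 0.0494). In the FPKM test the Cxcr5 difference was -2.16 (SE 0.22, limma adjusted p = 0.11), and with FPKM per exon length it passed at -2.82 (limma adjusted p = 0.0463). Without CKO replicate 2 the CKO group is replicate 1 alone, the library highest in plasma cell reads, so it has no spread of its own. Mzb1, Cxcr5 and Lef1, named because they passed there, then differed by -3.09, -2.12 and 1.66 in BTg against CKO. Mzb1 differed by 2.75 in CKO against WT. Of 13 precursor genes 5 passed the filter, with 2 higher and 3 lower in CKO than in WT, 1 and 4 in BTg against WT, and 2 and 3 in BTg against CKO (medians -0.26, -0.34 and -0.44). Limma voom on 9 gave 4 and 5 (-0.37), 1 and 8 (-0.49), and 4 and 5 (-0.55). With CKO replicate 1 left out, the 5 gave 2 and 3 in CKO against WT (-0.08) and 1 and 4 in BTg against CKO (-0.70). With WT replicate 2 left out, the 5 gave 2 and 3 in BTg against WT (-0.13). The precursor markers Vpreb1 and Rag1 had at most 10 and 5 reads, and Igll1 was at 0 in 4 libraries.

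Of 20 genes taken as Blimp-1 targets in the B lineage, 5 of the 8 genes among them, 10 passed the filter. In CKO against WT 7 of these were higher and 3 lower (median 0.29), in BTg against WT 2 and 8 (-0.26), and in BTg against CKO 2 and 8 (-0.57), while 45.4%, 54.5% and 56.1% of all genes tested were higher. None was called by limma, and voom called Cxcr5 as above. Voom on 19 of them gave 14 and 5 (0.40), 4 and 15 (-0.33), and 5 and 14 (-1.27). Leaving out CKO replicate 1, the 10 gave 8 and 2 in CKO against WT (0.31) and 2 and 8 in BTg against CKO (-0.58). Of all genes tested, 67.4% were then higher in CKO than in WT and 40.9% higher in BTg than in CKO. Without WT replicate 2, 9 passed the filter, and in BTg against WT 5 were higher and 4 lower (0.02). All genes tested then had a median of 0.135, and 66.4% of them were higher. The sign of the list median thus rests on this library, but the list median was below that of all genes both with and without it. Ciita, the class II transactivator, was 0.0795 and 0.21 FPKM in WT, 0.169 and 0.198 in CKO, and 0.0737 and 0.179 in BTg, with overlap between all groups. Id3, an inhibitor of E proteins that naive T cells express, was 27.8 and 22.9 FPKM in WT, 26.1 and 42.6 in CKO, and 14.7 and 8.54 in BTg, both BTg libraries being lowest. Bcl6, the repressor of the germinal centre and of follicular helper T cells, was 1.17 and 1.6 FPKM in WT, 2.42 and 2.83 in CKO, and 1.04 and 1.13 in BTg, again with no overlap between groups. Myc, a driver of growth, was 14.2 and 23.7, 16.1 and 21.5, and 13.4 and 15.4 FPKM. Bach2, given above and also among the 20, had no overlap between groups either, but in the reverse order of Bcl6. Its CKO libraries were lowest and its BTg libraries highest.

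Immunoglobulin transcripts were far above the 8 genes. Ighm, the mu heavy chain, stood at 873 and 1181 FPKM in WT, 3952 and 1169 in CKO, and 1078 and 910 in BTg, and Igkc, the kappa light chain, at 3524 and 4791, 35664 and 7332, and 3476 and 2650. Ighd, the delta chain of naive B cells, was only 0.245 and 0.787 FPKM in WT, 0.559 and 0.663 in CKO, and 0.612 and 0.616 in BTg. Sdc1, which encodes the plasma cell marker CD138, was 0.58 and 0.851, 2.17 and 0.903, and 0.594 and 0.469. Igkc, Sdc1, Cd79a and Cd79b thus had their highest library in common, CKO replicate 1, whereas Ighd, Pax5 and Spib had theirs in WT replicate 2.

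**Figure D4:**
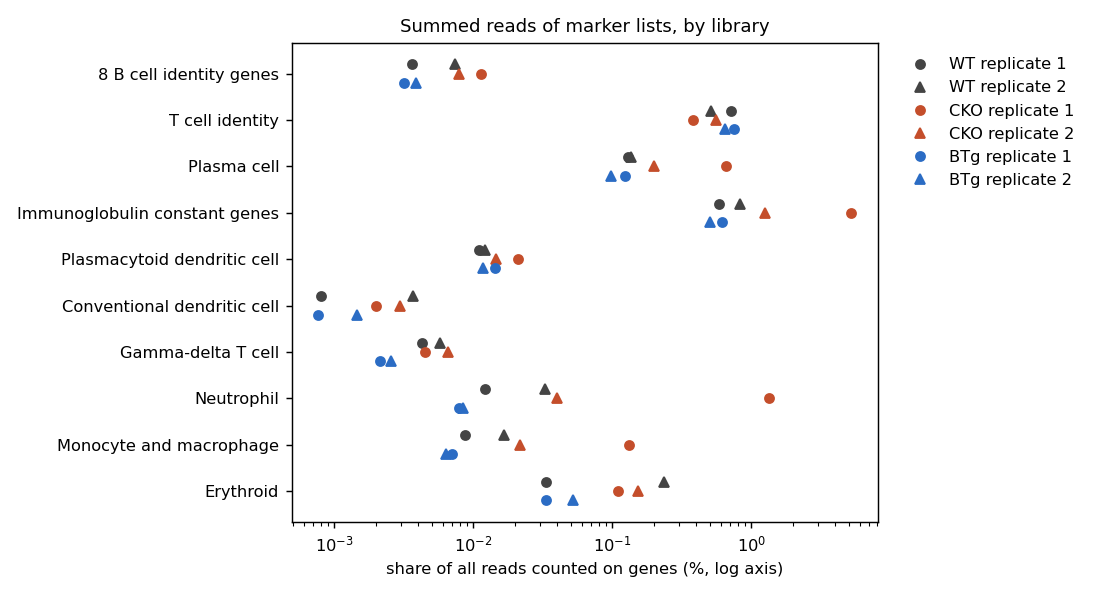
Summed reads of the 8 genes and of marker lists as a share of all reads on genes (percent, log axis), by library; colour gives the group, circles replicate 1 and triangles replicate 2. CKO replicate 1 is highest for the neutrophil, plasma cell, immunoglobulin and monocyte lists and lowest for T cell identity, and both BTg libraries are lowest for the gamma-delta list.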

How the data were processed

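RNA was sequenced from 6 libraries. The submitters' processing notes list featureCounts 1.6.0, HISAT2 2.1.0, Trimmomatic 0.38 and the build GRCm38, with strand and annotation release not given in the sources used here. Values are FPKM as deposited by the authors. Multiplying by the median genomic length of each gene's GENCODE M21 transcripts and by depth gave whole reads (within 0.01) for 100.0% of values above 0. Cd22, Ms4a1, Pax5 and Ebf1 overlap other genes, where the division of reads is uncertain. The 8 genes and all lists were chosen with earlier results of these data known. One limma fit with trend on log2(FPKM + 1) held the genes that reached 1 FPKM in 2 or more libraries (R 4.3.3, limma 3.58.1), Benjamini-Hochberg threshold 0.05; others are from the same fit without a filter. Limma voom used at least 10 reads in 2 libraries. Named genes were the 8, a fixed set, list members past the threshold and 5 most alike. The fit was tested on simulated data for CKO against WT over 10798 genes. It recovered 5 of 67 genes changed 2-fold in FPKM + 1 and 52 of 67 changed 4-fold. Changed genes were drawn from those with a mean of about 2 FPKM or more. Of the 8 genes only Cd79a and Cd79b reach that level, so these counts do not cover the other genes. The protein motif search was not run, and some listed genes are not reported here. Replicate numbers come from the column names in the titles.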

Additional observations from a re-analysis of the deposited data

How the results depend on the processing

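With 2 libraries per group and 5 to 859 reads per library on each of the 8 genes, small changes could not be seen. Of the 8 genes, 0 were called in CKO against WT and in BTg against WT under every alternative run; in BTg against CKO 0 to 1 were called when 1 library was left out (Cd79b without CKO replicate 2) and 0 under the others. The median difference over the 8 was -0.01, -0.20 and -0.20 in the 3 comparisons, in the order CKO against WT, BTg against WT and BTg against CKO. Leaving out 1 library it ranged from -0.017 to 0.34, from -0.42 to 0.0093 and from -0.40 to -0.13; the 0.34 and the 0.0093 came without WT replicate 2. For BTg against CKO it moved to -0.57 with a pseudocount of 0.1, -0.73 with 0.01, -0.75 with voom and -0.52 with exon length; the cause was not tested.

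Counts over all genes were 0, 2 and 2. Without a filter they were 65, 46 and 81, and leaving out 1 library 0 to 67, 0 to 0 and 0 to 238, the highest without CKO replicate 2. For BTg against WT the count was 0 with a filter of 0.1 FPKM, 1 with only the 2 groups compared and 4 with voom. For BTg against CKO it was 0 with a pseudocount of 0.01, a filter of 0.1 FPKM, quantile normalization or only the 2 groups compared, 7 with voom and 9 with exon length; the causes were not tested. With a replicate block both counts were 0 and 0 of the 8 genes were called. Deviations of same-numbered libraries correlated at 0.17 (WT and CKO), 0.47 (WT and BTg) and 0.46 (CKO and BTg), but no label says what a number marks.

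Genes near 0 changed sign. Spib in CKO against WT was 0.0862 and 0.14 with pseudocounts of 0.1 and 0.01 and 0.18 with voom. In BTg against WT quantile normalization gave 0.0111 for Ms4a1 and 0.00022 for Pax5. In BTg against CKO Ms4a1 was 0.0372, 0.0717, 0.0122, 0.00932, 0.0785 and 0.0037 with pseudocounts of 0.1 and 0.01, quantile normalization, median centring, voom and exon length. Leaving out 1 library, CKO against WT ranged from -0.14 to 0.12 for Ms4a1, -0.021 to 0.0038 for Pax5, -0.013 to 0.0033 for Ebf1, -0.55 to 0.49 for Spib and -0.25 to 0.20 for Blk. BTg against WT ranged from -0.75 to 0.026 for Cd79a, -0.093 to 0.0692 for Ms4a1, -0.018 to 0.0065 for Pax5, -0.0056 to 0.013 for Ebf1 and -0.65 to 0.38 for Spib. BTg against CKO ranged from -0.13 to 0.13 for Ms4a1, -0.0035 to 0.0089 for Pax5, -0.00068 to 0.018 for Ebf1 and -0.34 to 0.14 for Spib. Cd22 and Cd79b kept their direction in all 3 comparisons under every alternative run, but the Cd22 difference of BTg from WT ranged from -0.62 to -0.16 when 1 library was left out.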
